A study of Mus musculus with 4 samples.

Results

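The subunits of the mitochondrial respiratory chain and of the ATP synthase were followed in sorted mouse B cells. They were taken from 55573 gene identifiers as the protein-coding genes whose symbols start with Nduf, Sdh, Uqcr, Atp5 or Cox4 to Cox8, together with the 13 protein genes of the mitochondrial genome. This gave 111 genes, of which 98 are nuclear. Of the nuclear genes, 84 encode subunits, 36 in complex I, 4 in complex II, 8 in complex III, 19 in complex IV and 17 in complex V. The other 14 are assembly factors and related proteins that carry the same prefixes. A further 13 names with these prefixes, among them Ndufb1-ps, are not annotated as protein-coding and were left out.

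The cells were B cells of the Fr.C+C′ gate, sorted from the bone marrow of C57BL/6 mice aged 8 to 12 weeks, as the labels state. In the Hardy scheme the gate covers the late pro-B and the early pre-B stage. There were 2 libraries from wild type mice (WT 1 and WT 2) and 2 from mice labelled ADAR1 KO (KO 1 and KO 2). ADAR1, the enzyme encoded by Adar, edits double-stranded RNA by turning adenosine into inosine. Neither a Cre driver nor the part of Adar that was removed is given in the labels. Whether the 2 libraries of each genotype derive from different mice is not in the labels, so a p-value here reflects only the variation among libraries, which could be technical.

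The respiratory chain passes electrons from NADH and succinate through complexes I to IV to oxygen and pumps protons across the inner mitochondrial membrane. Complex V, the ATP synthase, uses the proton gradient to make ATP. Complexes I, III, IV and V are built from subunits of both genomes, while every subunit of complex II is encoded in the nucleus. The mitochondrial messages are cut from long transcripts that run around the circular genome, and the nuclear subunits are made in the cytosol and imported.

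Values are FPKM, fragment numbers divided by exon length and by the size of the library. Each library held between 15124645 and 16414826 fragments, estimated from the steps of the low values. Adar itself had 15.04 FPKM in WT 1, 14.62 in WT 2, 15.19 in KO 1 and 16.79 in KO 2, so its whole-gene level does not check the label. Markers of several cell types differed between the libraries. The summed FPKM of 20 B-lineage identity genes was 3153 in WT 1, 3347 in WT 2, 2493 in KO 1 and 1390 in KO 2. The sum of 20 neutrophil genes was 29394, 27377, 38126 and 77969 FPKM in the same order, and 17 of the 20 (85%) were higher in both KO libraries than in both wild type libraries, where 19.7% of all genes tested were. The sum of 11 erythroid genes was 1319, 770.2, 347.6 and 651.7 FPKM. In bulk RNA, fewer cells of a type and less RNA per cell cannot be told apart, and what these lists contribute to the values of the respiratory chain was not tested. The direction of the groups depends on this: when libraries were scaled to equal levels of the B-lineage genes, the median log2 change of all genes went from -0.09 to 0.57, and the medians of the nuclear subunits (0.57), of the mitochondrial genes (0.38) and of each complex became positive. The same holds for every pathway list given here, whose medians were then between 0.44 and 0.54. Lower levels of these groups, here and in the captions, are therefore those on the deposited scale, while the neutrophil median stayed positive (0.98, and 1.76 when scaled).

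The mitochondrial genes are described first, because their sequences bear on what their levels mean. Several have near-identical copies in the nuclear genome, and a read from such a stretch cannot be placed by sequence alone. The sequences shown here are 90-base stretches of mitochondrial genes from GENCODE M21 (GRCm38) beside the aligned stretch of their best matching annotated copy, with mismatched bases in capitals. They were chosen to show a gene with a perfect copy and abundant genes whose longest match has diverged. The first pair is the start of mt-Co2 (chrM:7013-7696, plus strand) and of the unprocessed pseudogene Gm28661 on chromosome 1, which had 0 mismatches in 681 aligned bases.
mt-Co2: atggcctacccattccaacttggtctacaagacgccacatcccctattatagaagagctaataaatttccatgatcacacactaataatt
Gm28661: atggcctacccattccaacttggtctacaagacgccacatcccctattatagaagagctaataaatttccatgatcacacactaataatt
The next pair is bases 445 to 534 of mt-Co1 (chrM:5328-6872, plus strand) and the matching stretch of Gm13340 on chromosome 2, which had 37 mismatches in 1545 aligned bases and 5 in this stretch.
mt-Co1: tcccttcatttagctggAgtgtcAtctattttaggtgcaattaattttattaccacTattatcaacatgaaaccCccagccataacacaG
Gm13340: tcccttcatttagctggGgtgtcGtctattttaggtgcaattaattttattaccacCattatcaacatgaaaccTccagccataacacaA
The last pair is bases 796 to 885 of mt-Cytb (chrM:14145-15288, plus strand) and Gm11410 on chromosome 4, with 81 mismatches in 1142 aligned bases and 10 in this stretch.
mt-Cytb: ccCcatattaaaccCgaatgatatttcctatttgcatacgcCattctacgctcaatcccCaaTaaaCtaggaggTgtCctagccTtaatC
Gm11410: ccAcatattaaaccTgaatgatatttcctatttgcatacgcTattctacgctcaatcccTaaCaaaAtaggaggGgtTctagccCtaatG

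The 13 mitochondrial genes fell into separate ranges of level, and 5 of the 6 low ones have such a copy over nearly their whole length. Of the 50-base words of mt-Co2, 100% also occur in an annotated transcript outside the mitochondrial genome. The share was 99.9% for mt-Co3, 99.5% for mt-Atp6, 98.8% for mt-Nd4l and 98% for mt-Nd3. Their copies lie side by side on chromosome 1, from Gm10222 (which begins at base 24612407) to Gm28661, and were themselves listed at low levels. In the order WT 1, WT 2, KO 1, KO 2, Gm28661 had 8.46, 5.81, 8.34 and 7.48 FPKM, and Gm10925, the copy of mt-Atp6, had 10.36, 8.89, 10.71 and 7.61 FPKM. Together with mt-Atp8, which has no annotated copy but lies between mt-Co2 and mt-Atp6, these 6 genes ranged from 1.45 to 20.72 FPKM over the 4 libraries. The other 7 ranged from 413.32 FPKM (mt-Nd6 in KO 1) to 4826.65 FPKM (mt-Co1 in WT 1). The counting of reads that match more than 1 place is not described by any label or file header, so the level of the 6 genes is uncertain. Part of 4 abundant genes is shared as well, 62.2% of the words of mt-Nd4, 51.1% of mt-Co1 (the largest part with Gm29216 on chromosome 1, a shorter copy than the one shown), 8.19% of mt-Nd2 and 7.61% of mt-Nd5. The levels of mt-Nd4 and mt-Co1 are therefore uncertain in part as well, and so is the sum of the 13 genes, in which mt-Co1 is the largest. For mt-Nd1, mt-Nd6 and mt-Cytb no word was shared.

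**Figure D1:**
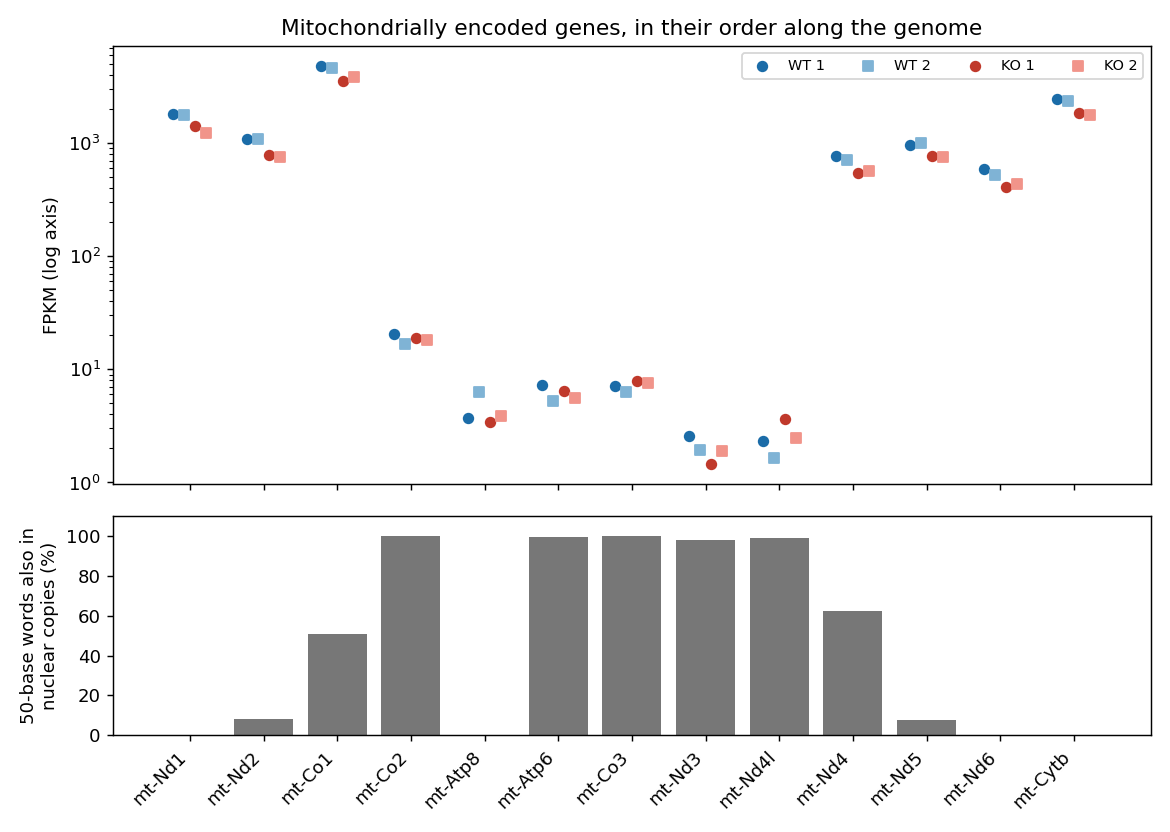
Upper panel: FPKM on a log axis of the 13 mitochondrial protein genes in each of the 4 libraries, in genome order. Lower panel: percent of each gene's 50-base words also found in annotated nuclear transcripts. The 6 genes from mt-Co2 to mt-Nd4l stay at or below 20.72 FPKM, and the other 7 lie above 413 FPKM with both KO libraries under both wild type libraries.

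On the deposited scale the 7 abundant mitochondrial genes were lower in both KO libraries than in both wild type libraries, each by about the same amount. Of all 13, 8 (61.5%) lay so, where 31.7% of all genes tested did, and none passed the test. mt-Co1, the catalytic subunit of cytochrome c oxidase and the most abundant member, was at 4826.65 and 4640.76 FPKM in WT 1 and WT 2 and at 3574.53 and 3814.49 FPKM in KO 1 and KO 2. The groups did not overlap, and the means were 4734 ± 131 and 3695 ± 170 FPKM (SD, n = 2). Its log2 change, KO minus WT on the log2(FPKM + 1) scale, was -0.36 ± 0.33 (SE), with a limma adjusted p of 0.619. mt-Cytb, the haem-bearing subunit of complex III, was at 2478.96 and 2339.71 FPKM in the wild type and 1835.78 and 1758.13 FPKM in the KO libraries, a log2 change of -0.42 ± 0.27 (limma adjusted p = 0.521). Both KO libraries were low for it and both wild type libraries high.

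The mitochondrial subunits of complex I form part of its proton-pumping membrane arm. mt-Nd1 was at 1806.35 and 1789.00 FPKM in the wild type and 1415.44 and 1228.17 FPKM in the KO libraries (log2 change -0.45 ± 0.26, limma adjusted p = 0.489). mt-Nd2 had the lowest log2 change of all 105 members tested, -0.50 ± 0.22, from 1083.42 and 1097.48 FPKM to 790.09 and 751.83 FPKM (limma adjusted p = 0.435). mt-Nd4 stood at 771.65 and 716.14 FPKM against 544.80 and 570.93 FPKM, a log2 change of -0.41. For each of these the wild type pair was the higher pair, and KO 1 and KO 2 lay further apart for mt-Nd1 than for the other two. mt-Nd5 was at 966.10 and 1004.89 FPKM in the wild type and at 763.92 and 753.94 FPKM in the KO libraries, a log2 change of -0.38. mt-Nd6, the only protein gene of the light strand, was at 590.39 and 527.44 FPKM against 413.32 and 436.11 FPKM, a log2 change of -0.39. The end of mt-Nd5 at base 13565 overlaps mt-Nd6, which begins at 13552, and no label or header says whether strand was kept.

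The 6 genes with copies or between them had no common direction. Their median log2 change was -0.02, against -0.41 for the 7 abundant genes, whose values ranged from -0.50 to -0.36. mt-Co2 had 20.72 and 16.92 FPKM in the wild type and 19.11 and 18.27 FPKM in the KO libraries, so the groups overlapped. mt-Nd4l was higher in both KO libraries, at 3.61 and 2.45 FPKM against 2.34 and 1.64 FPKM, and this rests on between 8 and 17 fragments a library. mt-Co3, at 7.97 and 7.51 FPKM against 7.10 and 6.37 FPKM, was also higher in both KO libraries. mt-Nd3 was lower in both, at 1.45 and 1.90 FPKM against 2.55 and 1.93 FPKM, with KO 2 and WT 2 nearly equal. Of the ATP synthase subunits, mt-Atp6 had 7.25 and 5.28 FPKM in the wild type against 6.49 and 5.53 FPKM, and mt-Atp8 had 3.72 and 6.27 FPKM against 3.40 and 3.89 FPKM, so both overlapped.

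The mitochondrial ribosomal RNAs, which are transcribed from the same genome, lay on the other side. mt-Rnr1 was at 231.86 and 217.69 FPKM in the wild type and 273.74 and 250.03 FPKM in the KO libraries (log2 change 0.22, limma adjusted p = 0.568). mt-Rnr2 was at 279.97 and 308.07 FPKM against 356.19 and 314.74 FPKM (log2 change 0.19, limma adjusted p = 0.637). For both, each KO library was above each wild type library, although neither passed the test. The summed FPKM of the 13 protein genes was 24.6 and 23.1 times that of the 2 ribosomal RNAs in WT 1 and WT 2 and 14.9 and 16.6 times in KO 1 and KO 2. The labels do not say whether RNA was selected for poly(A) tails, a step that sets how much ribosomal RNA a library holds.

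Added together, the 13 mitochondrial genes held 12567 FPKM in WT 1, 12154 in WT 2, 9380 in KO 1 and 9353 in KO 2. The mean was 12361 ± 292 FPKM in the wild type and 9367 ± 18.9 FPKM in the KO libraries (SD, n = 2). The KO mean was thus 1.32-fold lower, a gap larger than the spread within either group. As a share of all fragments they made up 1.63%, 1.58%, 1.22% and 1.23%. The 84 nuclear subunits summed to 5372, 4705, 4767 and 4025 FPKM, means of 5039 ± 471 and 4396 ± 525 FPKM. Here KO 1 lay between WT 1 and WT 2, so the groups overlapped. The ratio of the mitochondrial to the nuclear sum was 2.34 in WT 1, 2.58 in WT 2, 1.97 in KO 1 and 2.32 in KO 2. The KO libraries were the lower pair, but KO 2 and WT 1 differed by less than the libraries of either group did.

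**Figure D2:**
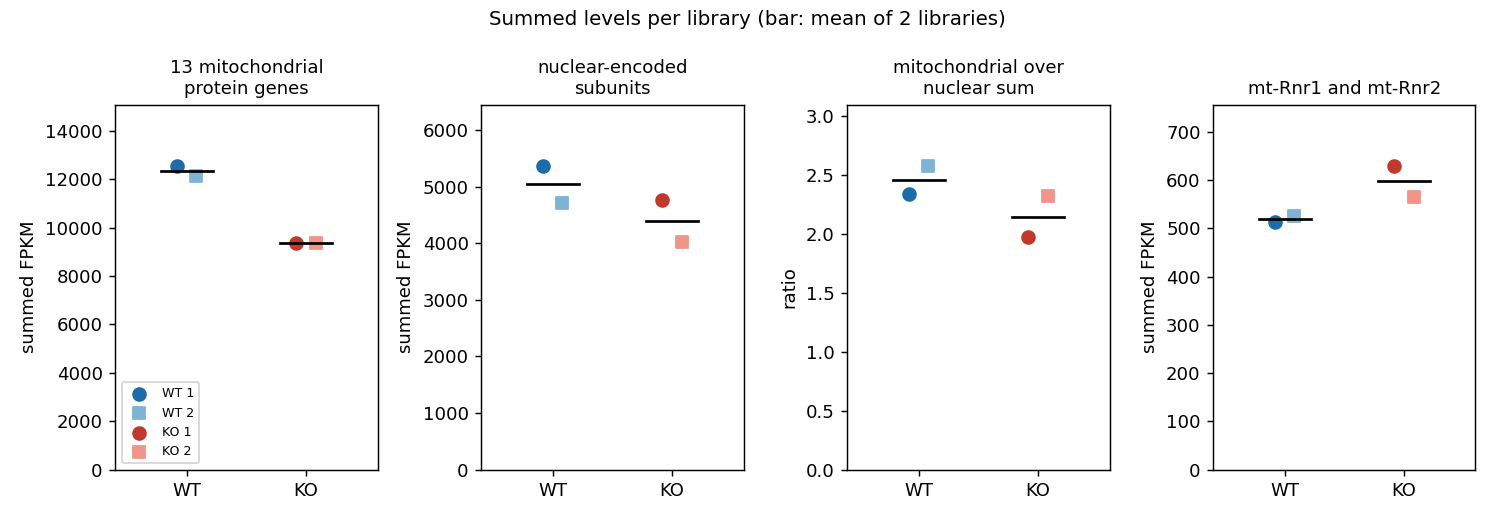
Summed FPKM per library for the 13 mitochondrial protein genes, the nuclear subunits, their ratio and the mitochondrial ribosomal RNAs, with points for the libraries and horizontal lines for the mean of 2. The KO libraries lie together at 9380 and 9353 FPKM for the mitochondrial sum, while the nuclear sums overlap.

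Over all members, 105 of 111 reached a mean of 1 FPKM in a group and were tested. No member passed the threshold (adjusted p under 0.05), in limma over 13281 genes. Over all genes tested, 27 were called lower, 0.203% of them, and 0, or 0%, higher. The smallest adjusted p of a member was 0.200. At an unadjusted p under 0.05, 3 members were lower (Ndufs1, Uqcrc2 and Atp5mpl), where 6.02% of all genes were, and 1 was higher (Cox6a2), where 6.45% were. With voom on estimated fragments 0 members were called as well.

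Most members were nonetheless on the lower side on the deposited scale, and the nuclear and mitochondrial medians were on the higher side with B-lineage scaling. The log2 change was negative for 91 of 105 (86.7%), against 61.7% of all genes tested, and the median was -0.19 against -0.09. Both KO libraries were below both wild type libraries for 47 members (44.8%), where 31.7% of all genes were. Both were above for 5 (4.76%), where 19.7% of all genes were: Cox6a2, Ndufv3, Cox7a1, mt-Co3 and mt-Nd4l. The libraries differed in how much they carried. The median deviation from the wild type mean was -0.09 in KO 1, where 65 members were negative, and -0.30 in KO 2, where 97 were. Over all genes the same medians were -0.01 and -0.17. WT 2 was below WT 1 for 90 of the 105, so the spread within the wild type also ran 1 way.

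The nuclear and mitochondrial genes divided between the KO libraries in different ways. For the 78 nuclear subunits tested the median was -0.18, and it was -0.08 with KO 1 alone and -0.29 with KO 2 alone. For the 13 mitochondrial genes it was -0.36, with -0.39 in KO 1 and -0.31 in KO 2. The mitochondrial median was therefore lower than the nuclear median by 0.31 without KO 2 and by 0.02 without KO 1, against 0.18 with all libraries. For all 13 genes, then, the gap was small without KO 1. The 7 abundant genes had a median of -0.40 in KO 1 and -0.39 in KO 2. Their mean log2 level was above that of the nuclear subunits by 5.32 in WT 1, 5.45 in WT 2, 5.02 in KO 1 and 5.21 in KO 2, so the KO libraries had the lower differences. WT 1 was above WT 2 by a median of 0.20 for the nuclear subunits, more than the whole KO difference.

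**Figure D3:**
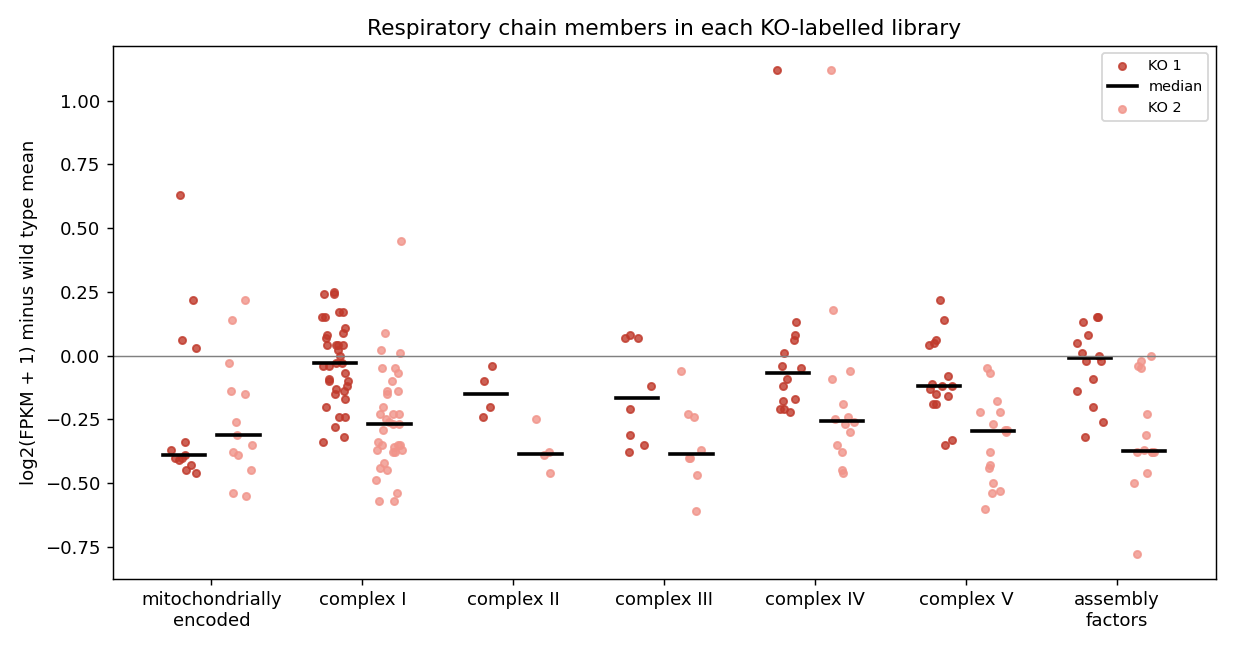
Deviation of each tested member from the wild type mean, on the log2(FPKM + 1) scale, in KO 1 and KO 2, by complex and for the mitochondrial genes. In KO 1 the nuclear groups lie near the zero line, with group medians of -0.17 to -0.01, and in KO 2 they lie at -0.39 to -0.25.

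Complex I, the NADH dehydrogenase, was measured through 36 nuclear subunits with a median level of 33.4 FPKM, and all were tested. Their median log2 change was -0.17, 30 were negative and 13 (36.1%) had both KO libraries below both wild type libraries, close to the background of 31.7% over all genes. The 7 nuclear core subunits, which carry the flavin and iron-sulphur clusters, were all negative with a median of -0.26, and the 29 supernumerary subunits had a median of -0.17, with 23 negative. Ndufs1, the largest core subunit of the NADH-oxidising module, was at 14.41 and 14.30 FPKM in the wild type and 11.27 and 10.97 FPKM in the KO libraries. The pairs lay well apart and were tight within, and the log2 change was -0.34 ± 0.13 (limma adjusted p = 0.395). Ndufv1, which binds NADH and the flavin, was at 39.16 and 36.01 FPKM against 33.24 and 26.41 FPKM (log2 change -0.33), again without overlap. Its partner Ndufv2 overlapped, at 43.18 and 34.98 FPKM against 39.87 and 35.08 FPKM.

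The core subunits Ndufs3, Ndufs7 and Ndufs8, which lie toward the quinone site, had overlapping groups. They had log2 changes of -0.26, -0.10 and -0.31, and in each the KO 1 value lay between the wild type values. Among supernumerary subunits, Ndufa5 had the lowest log2 change, -0.41 ± 0.20 (limma adjusted p = 0.452), from 27.35 and 21.19 FPKM to 20.19 and 15.89 FPKM. KO 1 was only slightly under WT 2. Ndufa10 was at 34.06 and 30.81 FPKM against 29.00 and 22.01 FPKM, with KO 2 the lowest. Ndufb4 was the least abundant subunit tested, at 1.62 and 1.75 FPKM against 1.12 and 1.07 FPKM, and 18.3% of its words are shared with other annotated genes, so its level is uncertain.

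A few complex I genes were on the higher side. Ndufv3, a small supernumerary subunit of the NADH-oxidising module, was at 17.03 and 14.63 FPKM in the wild type and 17.08 and 21.90 FPKM in the KO libraries, with a log2 change of 0.28 ± 0.18 (limma adjusted p = 0.522). KO 1 and WT 1 were equal to within 0.05 FPKM, and the higher mean came from KO 2. Ndufb7 and Ndufa13 each had a log2 change of 0.13, with overlapping groups, and so did Ndufa1, a small membrane-arm subunit, at 0.05. The most abundant complex I subunit, Ndufb11, a part of the membrane arm, overlapped at 113.88 and 96.06 FPKM against 110.69 and 87.68 FPKM.

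Complex II, succinate dehydrogenase, links the chain to the tricarboxylic acid cycle, and its 4 subunits were all negative with a median log2 change of -0.25, where that of all genes was -0.09. Sdhd, a membrane anchor, was at 105.85 and 95.35 FPKM in the wild type and 84.72 and 72.62 FPKM in the KO libraries (log2 change -0.35 ± 0.16, limma adjusted p = 0.442). Sdha, the flavoprotein that oxidises succinate, was at 77.41 and 74.02 FPKM against 65.79 and 57.82 FPKM (log2 change -0.29). Neither gene's groups overlapped, and KO 2 was the lowest library for both. Sdhb, the iron-sulphur subunit, overlapped, since KO 1 at 42.10 FPKM was above WT 2 at 39.83 FPKM.

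In complex III, the cytochrome bc1 complex, all 8 nuclear Uqcr genes were negative and 4 (50%, against 31.7% of all genes) had both KO libraries lowest, with a median of -0.21. Uqcrc2, a core scaffold protein of the matrix side, was at 61.20 and 62.89 FPKM in the wild type and 49.72 and 46.77 FPKM in the KO libraries, and the log2 change was -0.36 ± 0.14 (limma adjusted p = 0.397). Uqcrh, the hinge protein near cytochrome c1, was at 96.64 and 89.23 FPKM against 72.67 and 71.63 FPKM. In both, the KO libraries were close to each other and under the wild type. Uqcrfs1, the Rieske iron-sulphur protein, was at 100.47 and 92.46 FPKM against 82.91 and 62.97 FPKM, with KO 2 well under KO 1. The most abundant of the 8, Uqcr10, overlapped at 146.39 and 113.90 FPKM against 136.42 and 109.04 FPKM. Cyc1, the cytochrome c1 subunit, whose name lies outside the prefixes, also overlapped, at 67.98 and 59.47 FPKM against 63.60 and 51.36 FPKM.

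Complex IV, cytochrome c oxidase, has several subunits that exist as paired isoforms known from different tissues. Of its 19 nuclear genes 14 were tested, with a median log2 change of -0.13, 12 negative and 5 (35.7%) below both wild type libraries, near the median (-0.09) and share (31.7%) of all genes. The ubiquitous isoforms carried nearly all of the signal. Cox8a, the most abundant nuclear subunit, was at 359.25 and 321.29 FPKM in the wild type and 299.02 and 247.51 FPKM in the KO libraries (log2 change -0.32 ± 0.20, limma adjusted p = 0.510). The groups did not overlap, and KO 2 was the lowest. Cox6b1 was also lower in both, at 131.88 and 124.31 FPKM against 166.34 and 141.53 FPKM, and Cox7b at 69.68 and 61.98 FPKM against 89.29 and 73.41 FPKM. Ndufa4, first named as a complex I subunit and now placed in complex IV, was at 97.74 and 87.42 FPKM against 80.00 and 67.18 FPKM. Cox6a1 overlapped, at 330.38 and 282.44 FPKM against 295.32 and 239.06 FPKM, and so did Cox4i1, at 210.46 and 180.69 FPKM against 189.84 and 164.24 FPKM.

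The heart and skeletal muscle isoform Cox6a2 stood apart from the other members. Its level was 13.77 FPKM in WT 1, 10.12 in WT 2, 26.83 in KO 1 and 26.94 in KO 2, resting on 148, 113, 289 and 277 fragments. The KO libraries were nearly equal and both far above the wild type, with means of 11.9 ± 2.58 and 26.9 ± 0.0778 FPKM (SD, n = 2), a 2.25-fold higher level. The log2 change was 1.12 ± 0.18 (95% interval 0.66 to 1.59), and the limma adjusted p of 0.200 missed the threshold. Over the alternative settings that p ranged from 0.00597 to 0.746. It passed with the B-lineage scaling, at 0.00597, where 730 of all genes were called higher and 141 lower. It also passed, at 0.0395, with a block that paired each wild type library with the KO library of the other number. That block was chosen after seeing the data, and with it 213 of all genes were called. Cox6a2 (ENSMUSG00000030785) lies on chromosome 7 at 128205435 to 128206387 in GRCm38. It made up 4% and 3.46% of the summed FPKM of Cox6a1 and Cox6a2 in the wild type, and 8.33% and 10.1% in the KO libraries.

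Markers of other cells were examined beside Cox6a2 after its values were seen. The sum of 11 brown fat and muscle genes, in the same order, was 3.33, 3.29, 3.02 and 3.31 FPKM. This list holds the members Cox7a1 and Cox8b, and Cox7a1 alone had 1.54, 1.71, 1.77 and 1.98 FPKM. Myh1, Myh4 and Mb were listed at 0 in all libraries, while some others of the list were above 0. Of the 11 genes 2 were tested, with log2 changes of -0.39 and 0.13, the latter that of Cox7a1. The sum of 8 plasmacytoid dendritic cell genes was 189.0, 157.5, 235.8 and 260.1 FPKM, and for 7 of the 8 (87.5%, against 19.7% of all genes) each KO value exceeded each wild type value. The list was Siglech, Ccr9, Klk1, Pacsin1, Bst2, Tcf4, Irf8 and Runx2, and whether each is specific to these cells here was not tested. Siglech, a surface receptor of these cells, was at 25.55, 23.46, 30.72 and 40.25 FPKM. The plasmacytoid and neutrophil sums thus stood higher in the KO libraries, as Cox6a2 did, but KO 1 and KO 2 compared differently. The neutrophil sum was 38126 FPKM in KO 1 and 77969 FPKM in KO 2, and the plasmacytoid sum was 235.8 and 260.1 FPKM. By its median the plasmacytoid list was less even than by its sum. The median deviation from the wild type mean, on the log2(FPKM + 1) scale, was 0.30 in KO 1 and 0.64 in KO 2. KO 2 was below KO 1 for 3 of the 8 genes. Cox6a2 was nearly equal in KO 1 and KO 2, at 26.83 and 26.94 FPKM, with a deviation of 1.12 in each. The part of either list in the level of Cox6a2 was not tested.

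The other tissue-restricted isoforms were all less abundant than their ubiquitous partners and none differed between the groups by as much. Cox6b2, the testis isoform of Cox6b1, overlapped at 18.96 and 11.65 FPKM in the wild type and 13.16 and 14.20 FPKM in the KO libraries. Cox7a1, the muscle isoform of Cox7a2, was at 1.54 and 1.71 FPKM against 1.77 and 1.98 FPKM, a log2 change of 0.13 ± 0.18. Cox4i2, an isoform known from lung, had 0.64 and 0.31 FPKM in the wild type, 0.48 in KO 1 and 0.17 in KO 2, and was not tested. Cox7b2 and Cox8c were listed at 0 in all 4 libraries, Cox8b at 0.35 FPKM in KO 1 and at 0 elsewhere, and Ndufa4l2 at 0.06 FPKM or less. These 5 genes and a further identifier named Atp5o, listed at 0, are the 6 members that were not tested.

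**Figure D4:**
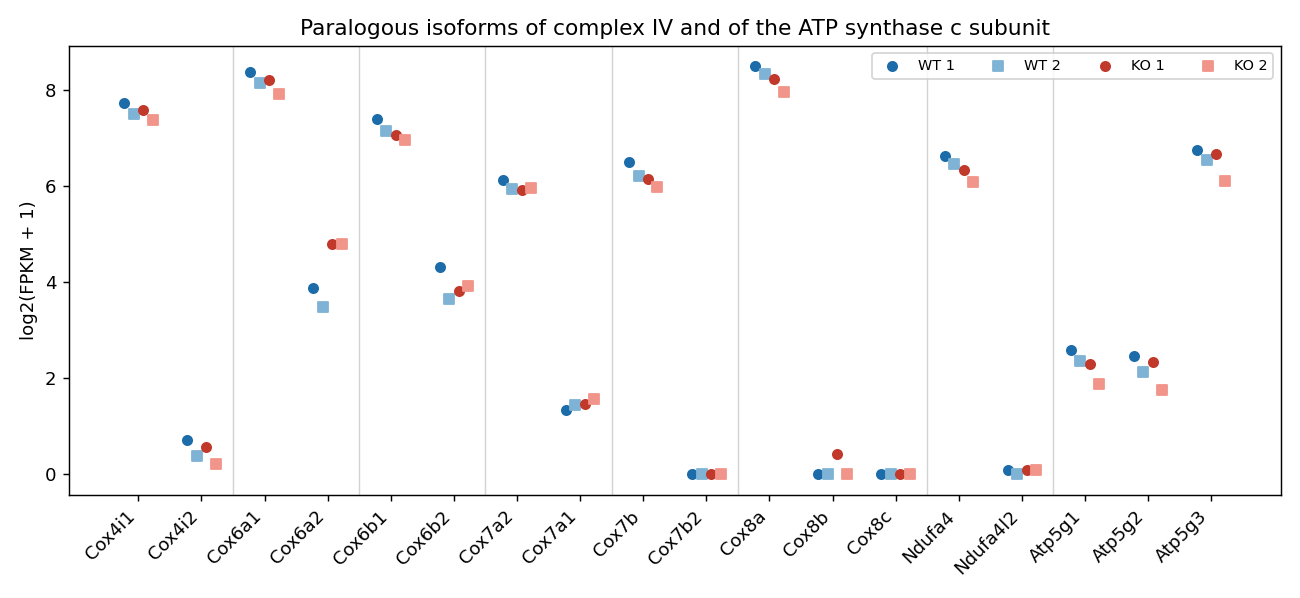
Level on the log2(FPKM + 1) scale of the paired isoforms of complex IV and of the ATP synthase c subunit genes in each of the 4 libraries. Cox6a2 is the isoform whose KO points lie far above its wild type points (26.83 and 26.94 against 13.77 and 10.12 FPKM), while the WT and KO points of each other isoform lie closer together.

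Complex V, the ATP synthase, had 16 of 17 nuclear genes tested, a median log2 change of -0.23, and 9 genes (56.2%, against 31.7% of all genes) with both KO libraries lowest. Atp5a1 and Atp5b encode the alternating subunits of the catalytic head. Atp5a1 was at 330.50 and 307.28 FPKM in the wild type and 285.40 and 224.84 FPKM in the KO libraries (log2 change -0.33 ± 0.20, limma adjusted p = 0.508). Atp5b was at 263.61 and 244.33 FPKM against 234.40 and 188.76 FPKM. Both had separate groups, with KO 1 nearer to the wild type than KO 2 was. Atp5mpl, a small membrane subunit, had the lowest adjusted p of the complex, 0.387 in limma, with a log2 change of -0.39 ± 0.14. Its levels were 56.37 and 50.40 FPKM in the wild type and 41.55 and 39.12 FPKM in the KO libraries, without overlap. Of the 3 genes that encode the same rotor ring protein, Atp5g3 was the most abundant and overlapped, at 106.05 and 92.19 FPKM against 101.42 and 68.03 FPKM. Atp5g1 (5.05 and 4.14 against 3.89 and 2.67 FPKM) was lower in both KO libraries, and Atp5g2 overlapped. The membrane subunits Atp5k and Atp5l had log2 changes of 0.00 and 0.04, with overlapping groups. Since 36.7% of the words of Atp5g2 and 11.1% of those of Atp5g1 are shared with other genes, their levels are uncertain.

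The 14 assembly factors and related proteins help to build the complexes and are not part of them in most cases. They had a median level of 5.71 FPKM and a median log2 change of -0.18. Both KO libraries were lowest for 5 of them (35.7%), close to the 31.7% of all genes tested. Sdhaf4, which helps the maturation of Sdha, was at 6.88 and 6.48 FPKM in the wild type and 5.13 and 4.92 FPKM in the KO libraries (log2 change -0.35, limma adjusted p = 0.408). Ndufaf1, an early complex I factor, was at 9.95 and 9.98 FPKM against 8.16 and 7.84 FPKM. For both the pairs were tight and separate. Ndufaf8 was at 17.83 and 15.78 FPKM against 17.79 and 9.36 FPKM, so only KO 2 was low. Cox7a2l, a factor in supercomplex formation, was at 119.84 and 118.90 FPKM against 117.33 and 92.30 FPKM, with KO 1 close to the wild type.

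Sequence shared with other genes was less common among nuclear subunits than among mitochondrial genes. No nuclear subunit shared over 50% of its words, 11 shared between 10% and 50%, and 43 shared none. The median level was 21.7 FPKM for those 11 and 40.8 FPKM for the 73 that shared at most 10%. Uqcrb (25.4%), Cox7c (22.1%), Ndufs5 (21.7%) and Ndufs3 (16.1%) were among the 11, so their levels are uncertain in part. The 11 also hold the Atp5o identifier listed at 0 FPKM (13.5%), and the 73 hold genes at 0 FPKM as well.

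Nuclear respiratory genes are known targets of NRF1 and of the ETS factor GABP, and YY1 is another known regulator, so their promoters were searched. Windows from 250 bases before to 50 bases after the start, from RefSeq on GRCm38.p6, were found for 80 of the 98 nuclear members. The motifs were the NRF1 core CGCATGCG, the ETS core CCGGAAG and the YY1 core AAGATGGC, on both strands. These 3 windows were chosen because each holds at least 2 of the motifs, which are in capitals, and each reads 5′ to 3′ along the gene. The window of Atp5j, a stalk subunit of the ATP synthase (chr16:84834927-84835226, minus strand), is the only one shown with all 3. The other window that the table holds for Atp5j (chr16:84835576-84835875) has none.
Atp5j: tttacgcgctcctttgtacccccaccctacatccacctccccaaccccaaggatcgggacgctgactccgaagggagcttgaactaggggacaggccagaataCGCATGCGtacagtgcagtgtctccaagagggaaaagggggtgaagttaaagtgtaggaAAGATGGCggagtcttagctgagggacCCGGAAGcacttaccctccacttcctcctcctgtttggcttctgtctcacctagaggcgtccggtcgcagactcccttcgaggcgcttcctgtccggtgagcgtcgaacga
The window of Uqcr11, a small complex III subunit (chr10:80406772-80407071, minus strand), holds the ETS core and the NRF1 core.
Uqcr11: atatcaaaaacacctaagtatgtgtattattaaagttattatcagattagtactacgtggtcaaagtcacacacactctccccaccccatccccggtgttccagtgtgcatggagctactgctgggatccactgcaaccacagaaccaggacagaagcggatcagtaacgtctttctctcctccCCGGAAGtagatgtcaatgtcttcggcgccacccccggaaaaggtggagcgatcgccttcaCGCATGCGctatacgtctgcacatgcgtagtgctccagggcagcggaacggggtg
That of Cox6a1 (chr5:115348909-115349208, minus strand) holds the NRF1 core and the ETS core on the other strand.
Cox6a1: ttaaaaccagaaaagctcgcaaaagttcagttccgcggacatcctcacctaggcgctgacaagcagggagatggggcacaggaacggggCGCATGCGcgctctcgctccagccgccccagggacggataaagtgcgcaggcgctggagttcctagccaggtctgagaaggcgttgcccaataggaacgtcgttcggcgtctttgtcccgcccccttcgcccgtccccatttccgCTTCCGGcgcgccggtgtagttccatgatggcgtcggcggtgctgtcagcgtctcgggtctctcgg

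At least 1 of the 3 motifs was found in 36 of the 80 members (45%), against 17.8% of 17492 protein-coding genes in the table. The NRF1 core was in 13.8% of the members and 2.77% of all genes, the ETS core in 26.2% and 12.9%, and the YY1 core in 13.8% and 3.57%. Other housekeeping genes were also rich in these letters. A motif was found in 55.1% of 69 mitochondrial ribosomal protein genes, in 50.7% of 69 cytosolic ribosomal protein genes and in 42.4% of 33 proteasome genes. The NRF1 core was in 10.1%, 4.35% and 3.03% of these lists. Among the complexes, the YY1 core was in 7 of the 32 complex I genes with a window (21.9%). It was in 3 of the 14 complex V genes with a window (21.4%) and in 0 of those of complexes II, III and IV. Complex V had a motif in 8 of its 14 genes with a window, a gene being counted if any of its windows held one. The changes of members with and without a motif were close. The 36 members with a motif had a median log2 change of -0.21, and 14 of the 36 had both KO libraries lowest. The 42 tested members without one had a median of -0.17, and 19 of the 42 had both KO libraries lowest. Over all genes tested 31.7% lay so.

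**Figure D5:**
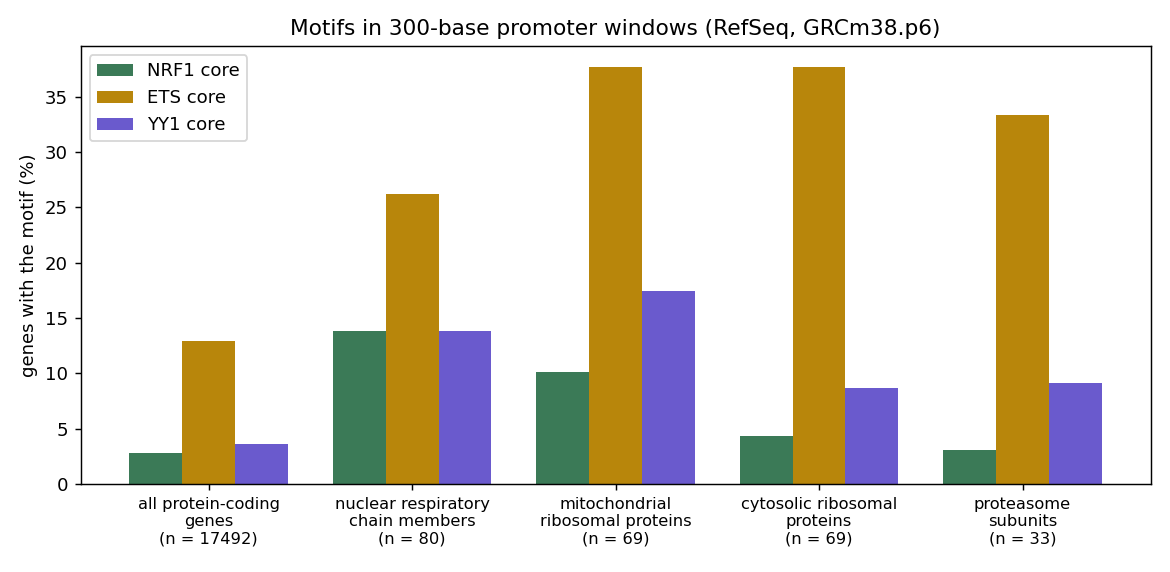
Percent of genes whose 300-base promoter window holds the NRF1, ETS or YY1 core, for the nuclear members, other lists and all protein-coding genes of the table. The members stand at 13.8% for the NRF1 core against 2.77% of all genes.

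Other genes of mitochondrial respiration were read from lists defined by function, and none of their genes passed the threshold in limma. The tricarboxylic acid cycle genes, which supply NADH and succinate, were all 19 negative, with a median log2 change of -0.30, and 17 (89.5%, against 31.7% of all genes) had both KO libraries lowest. Idh3a, the catalytic subunit of an isocitrate dehydrogenase, was at 19.96 and 18.67 FPKM in the wild type and 15.63 and 12.93 FPKM in the KO libraries (log2 change -0.42 ± 0.15, limma adjusted p = 0.389). Of 13 subunits, carriers and enzymes of the chain and the inner membrane with other names, 10 were negative (median -0.25) and 4 (30.8%, below the share of all genes) had both KO libraries lowest. Cycs, cytochrome c, was at 1.90 and 1.95 FPKM against 1.15 and 1.07 FPKM (limma adjusted p = 0.398), on 102, 109, 62 and 55 fragments. Shared words were counted for the members only, so they were not checked for Cycs and its level is uncertain. Sqor, which passes electrons from sulphide to quinone, was on the higher side, at 12.30 and 9.05 FPKM against 13.82 and 25.14 FPKM, with KO 2 far above KO 1. Its limma adjusted p was 0.416, and 0.0302 with B-lineage scaling, where it was 1 of 730 genes called higher.

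Of 32 genes of mitochondrial genome expression, 28 were negative (median -0.19) and 14 (43.8%, against 31.7% of all genes) had both KO libraries lowest. Pnpt1, a polynucleotide phosphorylase that degrades mitochondrial RNA, was at 16.77 and 16.27 FPKM in the wild type and 12.59 and 11.70 FPKM in the KO libraries (log2 change -0.42 ± 0.13, limma adjusted p = 0.370). Lrpprc, which stabilises mitochondrial messages, was at 12.23 and 10.88 FPKM against 9.37 and 7.65 FPKM (log2 change -0.40, limma adjusted p = 0.408). For both, each KO library was under each wild type library. Of 10 regulators of mitochondrial biogenesis tested, 8 were negative with a median of -0.16. Esrra, a nuclear receptor that drives respiratory genes, was higher in both KO libraries, at 11.53 and 12.71 FPKM against 9.87 and 9.44 FPKM, with a log2 change of 0.30 (limma adjusted p = 0.442).

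The wider list of assembly factors had a median log2 change of -0.15, with 39 of 51 negative and 16 (31.4%, the share of all genes being 31.7%) below both wild type libraries, and coenzyme Q synthesis had -0.15, with 9 of 13 negative. Lists outside respiration had medians as low. The 84 cytosolic ribosomal protein genes had a median of -0.28, the 38 proteasome genes -0.23 and the 77 mitochondrial ribosomal protein genes -0.20, beside -0.18 for the nuclear subunits. Both KO libraries were lowest for 41 (48.8%), 25 (65.8%) and 30 (39%) of them. Each of these lists was lower in KO 2 than in KO 1 by its median, as the nuclear subunits were.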

How the data were processed

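RNA of 4 libraries was measured. The authors deposited FPKM for each library, per the file headers. The genome build is mm9, per the submitters' processing notes, but the identifiers and implied lengths fit a GRCm38 annotation, and this conflict was not resolved. The aligner, the counter and the strandedness were not given in the sources used here. Lengths and symbols came from GENCODE M21 (GRCm38), which gave 55394 of 55573 identifiers a symbol. The depth of each library was chosen so that low values of short genes fell on whole fragments. Of the 2346 to 2645 such values checked per library, 99.5% to 99.6% fell within 0.15 of whole fragments. Limma (3.58.1, R 4.3.3) was run on log2(FPKM + 1), which understates changes of low genes, over 13281 genes that averaged 1 FPKM or more in a group, with Benjamini-Hochberg adjustment and a threshold of 0.05. It was also run on data simulated around the wild type means. The simulation had no built-in shift of the cell type markers, so its outcome does not show how the test performs on these libraries. An exact permutation test of 2 against 2 cannot go below 0.333 and was not used. Copies were found with blastn (2.17.0) and shared 50-base words.

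The members and lists were chosen with earlier results of these data known. Named are all mitochondrial genes, in each nuclear group the 3 largest positive and negative changes and the 3 most abundant, core subunits, isoform pairs, up to 3 genes of each pathway list by p, and Adar. Not all of these are described singly, and 1 gene is not reported here. Others, such as Lrpprc, the ribosomal RNAs, the pseudogenes and the plasmacytoid and muscle markers, were picked after values were seen. Nothing in the labels says that shared replicate numbers mark pairs.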

Additional observations from a re-analysis of the deposited data

How the results depend on the processing

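No member was called under any setting but 2, in which 1 (Cox6a2) was: scaling to the B-lineage genes and the crossed pairing. Over all genes 27 were called, against 15 with a pseudocount of 0.1, 0 without a filter on low values, 48 after scaling to genes outside the mitochondrial genome, 871 after B-lineage scaling (730 higher, 141 lower) and 9 with voom. Leaving out 1 library gave 0 (without KO 2) to 948 (without KO 1, 563 higher and 385 lower) calls, and 14 without WT 1. At an unadjusted p under 0.05, 3 members were lower, against 8 with voom (6.52% of all genes), 36 without KO 1 (25.4%) and 0 with median centring (4.96%). The replicate block gave 68 calls and 0 members, and the crossed pairing 213. The labels do not make these numbers pairs, and across genes the correlation of WT 1 minus WT 2 with KO 1 minus KO 2 was -0.149. The crossed pairing and the removal of the 6 mitochondrial genes with or between copies were chosen after seeing the data.

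B-lineage scaling moved the median of all genes from -0.09 to 0.57. With it the medians were 0.57 for nuclear subunits, 0.38 for mitochondrial genes, and 0.57, 0.51, 0.56, 0.62 and 0.53 for complexes I to V. The mitochondrial and nuclear log2 sums became 0.44 and 0.60. Relative to all genes the nuclear median was then at the general shift and the mitochondrial median under it. The mitochondrial median of -0.36 became -0.26 with quantile normalization, -0.29 with median centring, -0.44 with scaling outside the mitochondrial genome, -0.28 with scaling outside the neutrophil genes and -0.41 without the 6 genes. The mitochondrial log2 sum of -0.40 became -0.48 and -0.32 under those 2 scalings.

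Leaving out 1 library gave -0.39 to -0.31 for the mitochondrial median, -0.31 to -0.02 for the mitochondrial minus the nuclear median, -0.42 to -0.38 for the mitochondrial log2 sum, -0.39 to -0.15 for complex II and -0.39 to -0.11 for complex III. The lone library of a group was then assumed to vary like the other group. Sums have no value under settings that act only on the model. Depth limits mt-Nd3, mt-Nd4l and mt-Atp8, which rest on 8 to 21 fragments. The causes of these shifts were not tested.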
